A study of Mus musculus with 2 samples.

Results

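The 6 genes of the collagen IV family, Col4a1 to Col4a6, were compared between lens libraries of Msx2 CKO and Msx2 WT mice. They were chosen by name, and all 6 were found among the 21673 genes of the deposited table. The Msx2 CKO library came from C57BL/6 mice at postnatal day 60 that carried floxed Msx2 on both alleles and a Le-Cre transgene (Le-Cre+/-). The Msx2 WT library came from mice of that strain and age whose Msx2 alleles were also floxed (Msx2fl/fl) but which lacked Cre, so Cre itself differs between the genotypes along with Msx2. Le-Cre is driven by Pax6 regulatory sequence and acts in lens and in other tissues that form from the surface ectoderm of the eye. There was 1 library per genotype, and the labels do not say whether a library pooled several animals. With no replicates, no p-value was computed, and every difference below describes these 2 libraries.

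Collagen IV is the network-forming collagen of basement membranes. Its chains assemble as trimers in the endoplasmic reticulum, are secreted, and join end to end through their globular C-terminal domains. Col4a1 and Col4a2 encode the chains of the network found in nearly all basement membranes. Col4a3, Col4a4 and Col4a5 form a second network, best known from the glomerulus of the kidney, and Col4a5 with Col4a6 a further one. The lens capsule is an unusually thick basement membrane that is laid down by the lens cells through life and holds collagen IV as a main component. In humans, mutations of COL4A3, COL4A4 or COL4A5 cause Alport syndrome, in which the anterior capsule can thin and bulge, and mutations of COL4A1 can cause cataract.

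The genes lie in head-to-head pairs, so the bases between or around the starts of a pair are shown for the pairs whose members are compared below. Coordinates are those of the deposited table, and all 6 genes have the same coordinates in GENCODE M21 of the mouse assembly GRCm38. On chromosome 8, Col4a1 (ENSMUSG00000031502, minus strand, 11198423 to 11312826) and Col4a2 (ENSMUSG00000031503, plus strand, 11312805 to 11449287) overlap by 22 bases at their starts. On chromosome 1, Col4a4 (ENSMUSG00000067158, minus strand, 82448423 to 82586849) and Col4a3 (ENSMUSG00000079465, plus strand, 82586921 to 82722059) are 71 bases apart. On the X chromosome, Col4a6 (ENSMUSG00000031273, minus strand, 141165403 to 141474076) and Col4a5 (ENSMUSG00000031274, plus strand, 141475385 to 141689234) are 1308 bases apart.

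Promoter sequences were taken from RefSeq windows on GRCm38.p6 that run from 250 bases before to 50 bases after a gene's start, and 5 of the 6 genes, all but Col4a3, had one. Both strands were searched for CCAAT (the CCAAT box), GGGCGG (the GC box), CCCTCCCC (a CTC box, an element described in the shared promoter of the Col4a1 and Col4a2 pair), TATAAA (the TATA box) and TAATTG (a core site of MSX homeodomains). Capitals mark a match to any of these on either strand. The first sequence is the stretch just before the Col4a2 start that holds a CCAAT box and a CTC box, on the plus strand at chr8:11312773-11312799, within the annotated span of Col4a1. The second is the whole gap between the starts of Col4a4 and Col4a3, read on the Col4a4 strand at chr1:82586850-82586920. The last ones are the bases before Col4a5, on the plus strand at chrX:141475169-141475384, and before Col4a6, on the minus strand at chrX:141474077-141474326.
Col4a2: CCAATttgttggcgctgccCCCTCCCC
Col4a4: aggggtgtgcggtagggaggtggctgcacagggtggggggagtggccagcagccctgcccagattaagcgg
Col4a5: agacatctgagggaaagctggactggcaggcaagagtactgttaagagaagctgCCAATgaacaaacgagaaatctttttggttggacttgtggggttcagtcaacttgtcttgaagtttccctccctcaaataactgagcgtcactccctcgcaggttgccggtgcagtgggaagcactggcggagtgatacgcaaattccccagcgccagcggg
Col4a6: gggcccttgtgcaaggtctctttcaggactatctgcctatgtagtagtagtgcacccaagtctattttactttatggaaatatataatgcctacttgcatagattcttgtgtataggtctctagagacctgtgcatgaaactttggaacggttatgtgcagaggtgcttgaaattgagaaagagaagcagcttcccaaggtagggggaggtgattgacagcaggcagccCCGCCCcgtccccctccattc

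The stretch of Col4a2 runs from its CCAAT box to its CTC box and the others end at the deposited gene starts, so they do not show every match of the windows. In the full windows the Col4a1, Col4a2 and Col4a5 promoters each held the CCAAT box, the GC box and the CTC box, and the CTC box of Col4a5 runs across the end of the stretch printed, with its GC box past it. The Col4a6 window held 1 GC box alone, and the Col4a4 window held none of the 5 motifs. The windows of Col4a1 and Col4a2 overlap, and therefore share a GC box and a CTC box. Neither the TATA box nor the MSX core was matched in any of the 5 windows. Of 32851 windows of the same length, the CCAAT box was present in 37.4%, the GC box in 35.7%, the CTC box in 10.8%, the TATA box in 13.6% and the MSX core in 8.0%. A match is a description of the letters and not evidence of binding.

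All 6 collagen IV genes were lower in the CKO library. Levels are the deposited FPKM values (read fragments per kilobase of gene length, on the authors' scaling of the libraries). Differences are the plain ratio of FPKM with an exact 95% interval that covers counting error only, and the log2 ratio of CKO over WT after adding 1 FPKM. A gene is called lower or higher where that log2 ratio reaches 1 in size, which is 2-fold. A gene counts as measured where its mean FPKM over both libraries is 1 or more. By this rule 6 of 6 collagen IV genes were lower, with a median log2 ratio of -1.16, where 2.93% of the 10757 measured genes were lower and 5.83% higher, with a median over all measured genes of -0.02. A ratio below 0 of any size was found in 52.2% of measured genes. Genes at higher levels were lower more often: among 2424 genes with a mean of 10 FPKM or more, 5.53% were lower. In bulk tissue, fewer cells that express a gene and less of its RNA per cell cannot be told apart.

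Col4a1, which encodes the more abundant chain of the general network, was at 166 FPKM in CKO lens and 478 FPKM in WT lens. These levels rest on 28943 reads in CKO and 54381 in WT, and Col4a1 was 2.88-fold lower in CKO (2.84 to 2.92), a log2 ratio of -1.52. It ranked 127th of all genes by FPKM in the CKO library and 58th in the WT library. Col4a2, its partner chain, was at 104 FPKM in CKO and 309.9 FPKM in WT. It was 2.98-fold lower (2.93 to 3.04), with a log2 ratio of -1.57, the lowest of the family. Of the measured genes 101 had a log2 ratio as low as that of Col4a2 or lower, and 115 as low as that of Col4a1 or lower, counting the genes themselves.

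The chains of the kidney-type network were less abundant and nearer to 2-fold. Col4a3, whose C-terminal domain is the autoantigen of Goodpasture disease, was at 25.8 FPKM in CKO and 59.8 FPKM in WT, 2.32-fold lower (2.24 to 2.39). Col4a4, its neighbour and partner in the trimer, was at 19.8 FPKM in CKO and 44.6 FPKM in WT, 2.25-fold lower (2.17 to 2.33). Col4a5, the chain that both minor networks use and the gene of X-linked Alport syndrome, was at 23.99 FPKM in CKO and 53.3 FPKM in WT, 2.22-fold lower (2.13 to 2.32). Col4a6, the partner of Col4a5 in the last network, had the lowest level and the ratio nearest to 1, at 13.7 FPKM in CKO and 29.2 FPKM in WT, 2.13-fold lower (2.03 to 2.24). The log2 ratios of Col4a3 to Col4a6 were -1.18, -1.13, -1.12 and -1.04, so that Col4a6 lay just inside the 2-fold rule. For these 4 genes the reads ran from 2548 (Col4a6) to 6013 (Col4a3) in CKO and from 3550 (Col4a6) to 9096 (Col4a3) in WT.

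**Figure D1:**
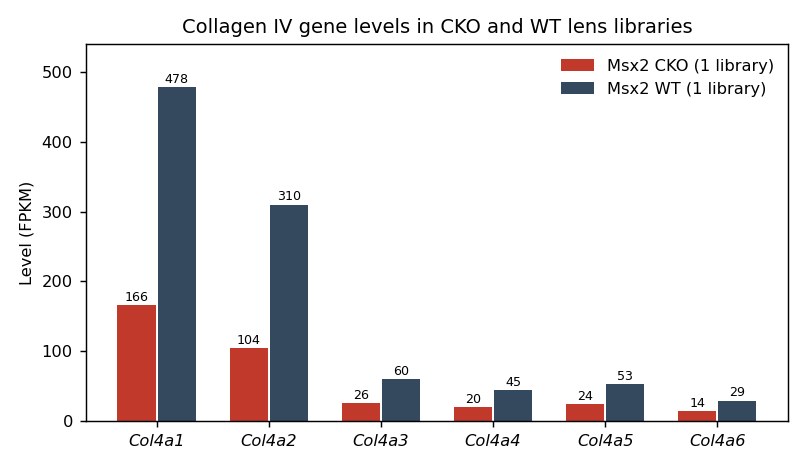
FPKM (linear axis from 0) of each collagen IV gene in the CKO library (red) and the WT library (dark blue), 1 library per genotype and so no error bars. Every CKO bar is below its WT bar, and Col4a1 and Col4a2 stand above the other 4 genes in both libraries.

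The order of the genes by level was the same in both libraries: Col4a1, Col4a2, Col4a3, Col4a5, Col4a4, Col4a6. Within each library every neighbour differed from the next by more than counting error. The closest were Col4a3 and Col4a5, with Col4a3 at 1.08 times Col4a5 in CKO (95% counting interval 1.03 to 1.12) and 1.12 times in WT (1.08 to 1.16). The place of Col4a4, however, depends on the length used. Its deposited length of 10612 bases is about that of Col4a3, 9967 bases, and longer than that of Col4a5, 6718 bases, whereas the coding lengths of these genes in GENCODE are 5046, 5007 and 5073 bases. Scaled by coding length, Col4a4 lay above Col4a5 in both libraries. The plain ratio of CKO over WT for a gene does not involve its length, but the log2 ratio does through the 1 FPKM added.

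By network, the summed level of Col4a1 and Col4a2 was 270.2 FPKM in CKO and 788 FPKM in WT, 2.92-fold lower. Col4a3, Col4a4 and Col4a5 together were at 69.6 FPKM in CKO and 158 FPKM in WT, 2.26-fold lower, and Col4a5 with Col4a6 at 37.7 FPKM in CKO and 82.5 FPKM in WT, 2.19-fold lower. All 6 genes together took 0.363% of reads in CKO (62246 reads) and 0.534% in WT (111033 reads). The general network therefore had both the highest level and the largest difference between the libraries.

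The composition of collagen IV RNA was compared within each library, which makes it independent of how the libraries are scaled to each other. Col4a1 and Col4a2 made up 76.4% of the summed collagen IV FPKM in CKO and 80.8% in WT. Col4a3 and Col4a4 made up 12.9% in CKO and 10.7% in WT, and Col4a5 and Col4a6 10.7% in CKO and 8.46% in WT. As shares of reads, Col4a1 and Col4a2 took 72.3% in CKO (exact binomial 95% interval 71.95 to 72.7) and 77.2% in WT (76.9 to 77.4). The share of Col4a1 alone was 47.1% of the summed FPKM in CKO and 49.1% in WT, and that of Col4a2 29.4% in CKO and 31.8% in WT. Each of the other 4 chains had the larger share in CKO: Col4a3 7.30% in CKO against 6.13% in WT, Col4a4 5.61% in CKO against 4.57% in WT, Col4a5 6.79% in CKO against 5.47% in WT, and Col4a6 3.87% in CKO against 2.99% in WT.

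**Figure D2:**
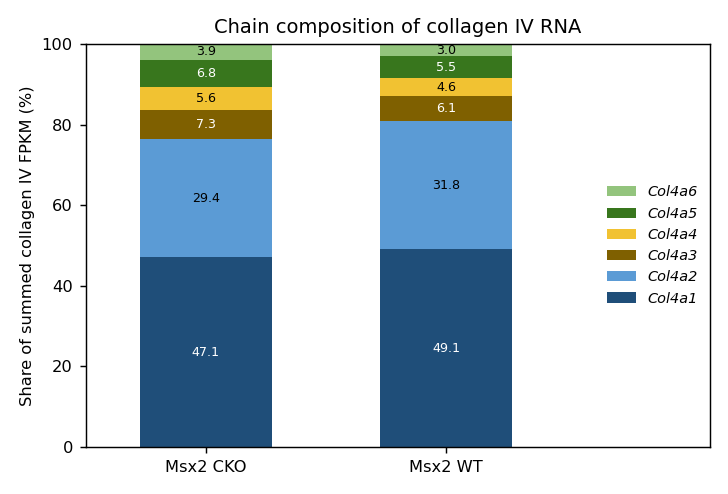
Share of each chain in the summed collagen IV FPKM (percent, stacked to the whole) in the CKO library (left) and the WT library (right), with each share printed in its segment. The Col4a1 and Col4a2 segments together are smaller in CKO, at 76.4%, than in WT, at 80.8%.

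The balance between any pair of chains was expressed as the first gene over the second in CKO, divided by the same in WT. This value needs no scaling, and its exact conditional interval again covers counting error alone. All 15 pairs of chains were compared. Col4a1 and Col4a2 together, set against Col4a3 and Col4a4, gave 0.784 (95% counting interval 0.764 to 0.806), and against Col4a5 and Col4a6 gave 0.7501 (0.725 to 0.776). In each of the 8 pairs of Col4a1 or Col4a2 with another chain the whole interval was below 1, with values from 0.715 for Col4a2 against Col4a6 to 0.805 for Col4a1 against Col4a3. Col4a1 was thus 6.44 times Col4a3 in CKO and 8.002 times in WT by FPKM.

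Within the pairs that share a locus the balance differed far less between the libraries. Col4a1 was 1.6015 times Col4a2 in CKO and 1.54 times in WT, a value of 1.04 (1.01 to 1.06). Col4a3 was 1.30 times Col4a4 in CKO and 1.34 times in WT, giving 0.972 (0.925 to 1.02), and Col4a5 was 1.75 times Col4a6 in CKO and 1.83 times in WT, giving 0.96 (0.898 to 1.03). Of the 6 pairs among Col4a3 to Col4a6, 5 had an interval that holds 1, and their values lay between 0.921 and 0.988. The exception was Col4a3 against Col4a6, at 0.921 (0.867 to 0.979). The locus pairs on chromosomes 1 and X, set against each other, gave 0.956 (0.918 to 0.996). How far such a balance varies between animals of 1 genotype was not measured.

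**Figure D3:**
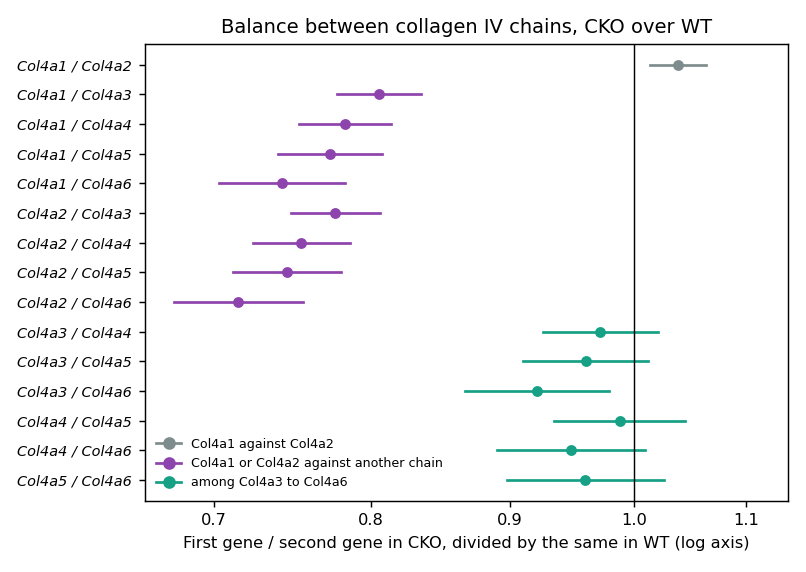
Level of the first gene over the second in CKO, divided by the same in WT, for the 15 pairs of collagen IV genes (log axis). Points are values, lines are exact 95% counting intervals, and the vertical line marks equal balance. Pairs of Col4a1 or Col4a2 with another chain (purple) lie between 0.715 and 0.805, those among Col4a3 to Col4a6 (green) between 0.921 and 0.988, and Col4a1 against Col4a2 (grey) at 1.04.

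How much lower the collagen IV genes were depended on the scaling of the libraries. In CKO 40.1% of reads came from 16 crystallin genes, against 61.6% in WT, and the deposited scaling equals that by trimmed mean of M-values. With library totals alone, which raised the median over measured genes by 0.70, all 6 genes were still below 0, as 5.9% of measured genes were, but none reached 2-fold lower, where 0.827% of measured genes did and 19.5% reached 2-fold higher. Their log2 ratios were then -0.63 for Col4a1, -0.68 for Col4a2 and between -0.31 (Col4a3) and -0.19 (Col4a6) for the others. Scaled to library totals without the crystallins, which moved that median up by 0.19, Col4a1 and Col4a2 reached 2-fold and the other 4 did not, where 1.95% of measured genes were 2-fold lower, 7.1% 2-fold higher and 28.5% below 0. By median-of-ratios all 6 were 2-fold lower, where 3.02% of measured genes were, and 53.6% were below 0. The direction was therefore the same under each scaling tried, while the 2-fold calls were not.

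**Figure D4:**
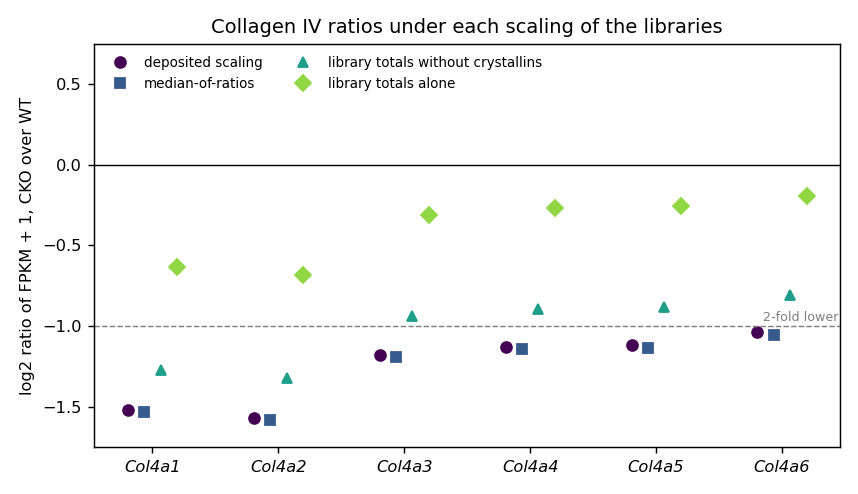
Log2 ratio of FPKM + 1, CKO over WT, for each collagen IV gene under the deposited scaling (circles), median-of-ratios (squares), library totals without crystallins (triangles) and library totals alone (diamonds). All points are below 0 and the dashed line marks 2-fold lower. Col4a1 and Col4a2 pass it under each scaling but library totals alone, and Col4a3 to Col4a6 under the deposited and median-of-ratios scalings.

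Col4a5 and Col4a6 are X-linked, and the libraries differed in sex-linked RNA. Xist, which is transcribed from the inactive X chromosome of females, was counted 16251 times in the CKO library and 35 times in the WT library, and the Y-linked Eif2s3y 0 times in the CKO library and 819 times in the WT library. Across 334 measured genes of the X chromosome the median log2 ratio was 0.01, with 8 genes lower, Col4a5 and Col4a6 among them. That is 2.40% of these genes, against 2.93% of all measured genes. Sex and genotype cannot be told apart in these libraries. As a check of the labels, Msx2 had 0.0392 FPKM in the CKO library and 6.21 FPKM in the WT library.

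Genes whose products modify, fold and crosslink collagen were a mixed group. Of 19 measured, 2 were lower, none was higher and 17 lay within 2-fold, with a median log2 ratio of -0.38 that became 0.28 under library totals alone. Over all measured genes 2.93% were lower and 5.83% higher, and the counts of this list and of the lists below stand against those shares. Both lower genes encode the catalytic subunit of prolyl 4-hydroxylase, which makes the hydroxyproline that stabilises the collagen helix. P4ha1 was at 40.9 FPKM in CKO and 98.5 FPKM in WT, 2.41-fold lower (2.31 to 2.51), and P4ha2 at 6.97 FPKM in CKO and 18.4 FPKM in WT, 2.64-fold lower (2.44 to 2.85). Their common partner subunit P4hb, the protein disulfide isomerase, was at 28.7 FPKM in CKO and 19.3 FPKM in WT, a log2 ratio of 0.55. The catalytic and partner subunits thus lay on opposite sides of 0.

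Serpinh1, which encodes the collagen chaperone HSP47, was at 33.2 FPKM in CKO and 50.3 FPKM in WT, a log2 ratio of -0.59 that became 0.28 under library totals alone. The crosslinking enzymes below were named after their values were seen. Pxdn, which encodes peroxidasin, the enzyme that forms the sulfilimine bond between collagen IV trimers, had a log2 ratio of -0.89, at 16.2 FPKM in CKO and 30.8 FPKM in WT. Loxl1, a lysyl oxidase family gene, had a log2 ratio of -0.99, and Plod2, which encodes a lysyl hydroxylase, one of -0.94. By plain ratio Loxl1 was 2.06-fold lower (1.90 to 2.23) and Plod2 2.15-fold lower (1.92 to 2.41), so that both missed the rule through the 1 FPKM added. P3h3 missed it in the same way on the other side, at 2.49-fold higher by plain ratio (1.95 to 3.21) and a log2 ratio of 0.90. Under library totals alone no gene of this group was lower and 2, P4hb and P3h3, were higher.

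Genes listed as collagen receptors lay mostly within 2-fold. Of 10 listed, 5 were measured, of which 1 was lower and none higher. The lower gene was Ddr2, a receptor for fibrillar collagens, and the other measured genes were within 2-fold. The list median was -0.49 and became 0.37 under library totals alone, where all but Ddr2 were above 0. The integrin genes Itga1, Itga2, Itga10, Itga11 and Itgb3 were too low to count as measured. Itgb1, the integrin subunit common to the collagen-binding integrins, was at 39.1 FPKM in CKO and 48.5 FPKM in WT, a log2 ratio of -0.30. Ddr1, a receptor tyrosine kinase for collagens, was at 20.3 FPKM in CKO and 28.9 FPKM in WT, with a ratio of -0.49, and the integrin gene Itgav had a ratio of -0.33. Ddr2, the related receptor for fibrillar collagens, was at 0.716 FPKM in CKO and 4.47 FPKM in WT, 6.24-fold lower (5.23 to 7.49), on 155 reads in CKO and 632 in WT. It also reached 2-fold under library totals alone, with a ratio of -1.12.

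Among the proteins that join collagen IV in basement membranes, 3 of 15 measured genes were lower and 2 higher, with a median of -0.41 that became 0.42 under library totals alone. Nid1, whose product nidogen binds collagen IV and laminin, was at 100.1 FPKM in CKO and 204 FPKM in WT, 2.04-fold lower (1.997 to 2.09), and Hspg2 (perlecan) and Npnt (nephronectin, also on the list of epithelial genes) had log2 ratios of -1.31 and -1.38. Sparc, a collagen-binding matrix protein that is needed for the lens capsule in mice, was the most abundant gene of the list at 337 FPKM in CKO and 439 FPKM in WT, a ratio of -0.38 that became 0.51 under library totals alone. Agrn (agrin) and Bgn (biglycan), the 2 higher genes, had ratios of 1.02 and 1.05. None of these partners but Npnt and Hspg2 had a ratio below that of Col4a3. In that respect the collagen IV genes were lower than most other basement membrane genes of the list, a comparison of values for which there is no test.

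Genes of other collagen types were mostly within 2-fold. Of 12 measured genes of other collagen types none was lower and 1 was higher, with a median log2 ratio of 0.22. Col6a3, at 6.53 FPKM in CKO and 14.0 FPKM in WT, was 2.15-fold lower by plain ratio (2.02 to 2.28) and fell short of the rule through the 1 FPKM added. The higher gene, Col6a1, named like Col6a3 after its value was seen, was at 3.77 FPKM in CKO and 0.344 FPKM in WT. Of 10 matrix proteinases and inhibitors none was lower and 2 were higher, with a list median of 0.42. The higher genes were the inhibitor Timp1 and the cathepsin Ctss (also on the leukocyte list), both named after their values were seen. The gelatinase genes Mmp2 and Mmp9, whose products can cleave collagen IV, were at 1.72 FPKM in CKO against 0.517 FPKM in WT, and at 0.254 FPKM in CKO against 0.148 FPKM in WT.

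**Figure D5:**
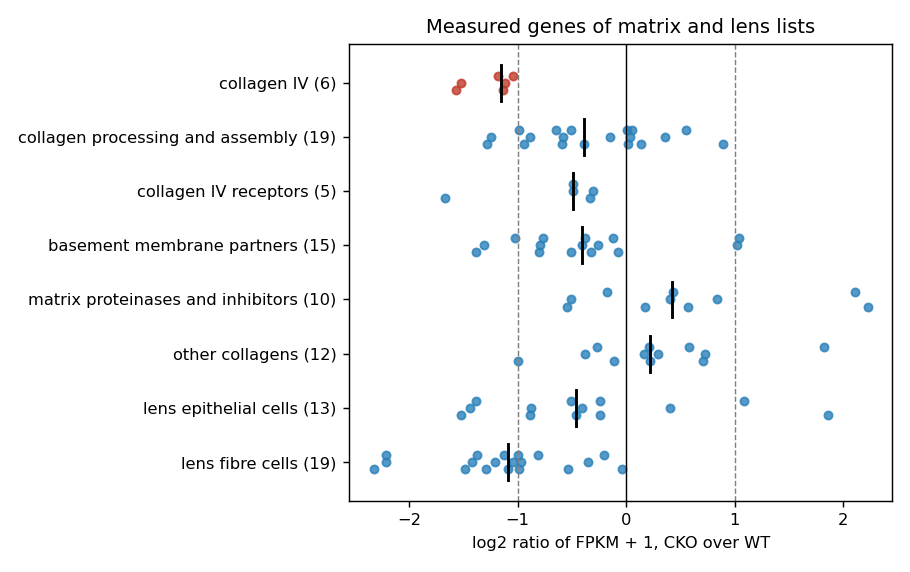
Log2 ratio of FPKM + 1, CKO over WT, for every measured gene of 8 lists (points, number of genes in brackets), with the list median as a black bar and 2-fold in either direction as dashed lines. All 6 collagen IV genes (red) lie at -1.04 or below, the median of the processing list is -0.38 (0.28 under library totals alone) and that of other collagens 0.22.

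Lens epithelial cells are a main source of capsule collagen, so the chains were also set against epithelial genes. Of 13 measured epithelial genes, 3 were lower, 2 higher and 8 within 2-fold, with a median of -0.46 that became 0.40 under library totals alone. Of these, 3 (Cryab, Gja1 and Npnt) had a log2 ratio as low as that of Col4a6. Gja1, which encodes connexin 43, equalled Col4a1 within counting error, at 2.96-fold lower (2.77 to 3.17). The summed FPKM of the 6 chains was 0.0235 times that of the 14 listed epithelial genes in CKO and 0.0247 times in WT. That sum is dominated by the crystallin gene Cryab, also abundant in fibres, at 13647 FPKM in CKO and 36990 FPKM in WT. Without Cryab the chains were at 0.251 times the list in CKO and 0.397 times in WT, 1.58-fold lower. Without Cryab and Cd24a, the next most abundant gene, they were at 1.18 times the list in CKO and 2.38 times in WT, 2.02-fold lower. Col4a3 to Col4a6 alone were at 0.00553 times the full list in CKO and 0.00474 times in WT, 1.17 times as high in CKO, but 1.29-fold lower without Cryab. The comparison with epithelial genes thus depended on which of them were summed. The lens fibre genes were lower in 11 of 19, with a median of -1.09, close to that of the chains, and Crygs and Grifin were the most abundant of them. Set against the summed fibre genes, the 6 chains were 1.15-fold lower in CKO, 1.28-fold without Crygs and 1.20-fold without Crygs and Grifin. For Col4a3 to Col4a6 alone the CKO over WT ratios of these sums were 1.07, 0.957 and 1.03.

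Markers of other cells differed between the same libraries, and their part in the collagen IV values was not tested. Endothelial cells and pericytes also make Col4a1 and Col4a2. The 16 listed genes of these cells summed to 19.2 FPKM in CKO and 18.0 FPKM in WT, and of 4 measured 1 was higher. That sum was mostly Pdgfrb in WT, and without it the others summed to 11.4 FPKM in CKO and 3.85 FPKM in WT. By level, 13 of the 16 were higher in CKO and 3 lower. The share of measured genes with a ratio below 0, 52.2%, is not a like background, and none was computed for genes at such low levels. Only 4 of the 16 were measured, and most of the others had few reads in WT, such as 1 for Cldn5 and 2 for Esam. The higher gene of the measured ones was Kdr, which encodes a VEGF receptor, with 606 reads in CKO and 25 in WT. Flt1, another VEGF receptor gene, had 483 reads in CKO and 118 in WT. By plain ratio Flt1 was 2.67-fold higher (2.18 to 3.30), and it missed the rule through the 1 FPKM added. Both were named after their values were seen. The most abundant were Pdgfrb (7.80 FPKM in CKO and 14.2 in WT) and Tek (2.30 in CKO and 1.57 in WT), while the defining marker Pecam1 had 0.158 FPKM in CKO and 0.0526 in WT. Emcn had 2 reads in CKO and 0 in WT, and Des 0 reads in CKO and 2 in WT. Photoreceptor genes were higher in all 22 measured, with Gnat1, which encodes the rod transducin alpha subunit, at 164 FPKM in CKO and 3.55 in WT. Of 13 measured genes of inner retina and glia 8 were higher and 1 lower, with Vim at 424 FPKM in CKO and 435 in WT and Glul at 93.2 in CKO and 38.3 in WT.

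For the remaining lists, 7 of 8 measured leukocyte genes were higher and 1 lower, with Lyz2 at 9.63 FPKM in CKO and 2.07 in WT and Cd74 at 9.23 in CKO and 1.11 in WT. Of 5 measured fibroblast genes 2 were higher, Thy1 (7.60 FPKM in CKO and 0.302 in WT, also on the inner retina list) and Fbln2 (1.92 in CKO and 0.226 in WT), both named after their values were seen. The most abundant, Fbln1 (26.6 FPKM in CKO and 24.8 in WT) and Pdgfra (3.99 in CKO and 7.25 in WT), were within 2-fold, and the listed Col1a1 and Col3a1 had 145 and 55 reads in CKO and 0 reads each in WT. The list for pigment epithelium, iris and ciliary body had 2 lower genes of 6 measured and was led by Car14 (5.70 FPKM in CKO and 19.9 in WT) and Ttr (2.14 in CKO and 3.65 in WT). The 1 measured gene of cornea and conjunctiva, Aldh3a1, was higher, at 169 FPKM in CKO and 11.6 in WT, and Dcn, next on that list, had 1.23 FPKM in CKO and 0.0629 in WT. Summed over their lists, the photoreceptor and leukocyte genes were higher in CKO. The cornea and conjunctiva sum was also higher but was nearly all Aldh3a1, with 5 of its 10 genes found in the table. On that list Krt13 and Krt14 had 1 and 0 reads in CKO and 5 and 2 in WT. Muc5ac had 5 reads in CKO and 0 in WT. The inner retina sum, 597 FPKM in CKO and 491 in WT, was mostly Vim, at 424 and 435.

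The genes most like Col4a1 and Col4a2 were the protein-coding genes nearest in log2(FPKM + 1) over the 2 libraries. Nearest to Col4a1 were Ndufa1, Dynll2, Tdrd7, Cox8a and Gja3, at distances of 0.19 to 0.60. Ndufa1, which encodes a subunit of respiratory complex I, was at 189.8 FPKM in CKO and 492 FPKM in WT. Among those nearest to Col4a2 were Hmox1, Crygn, Tcp11 and Uchl1, at distances of 0.22 to 0.46, with Hmox1 (haem oxygenase 1) at 99.998 FPKM in CKO and 268 FPKM in WT. With 2 libraries such likeness says only that both levels are close.

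Genes annotated inside or across the collagen IV loci had few reads. Gm15418, antisense to the end of Col4a1, had 19 reads in CKO and 57 in WT, and C430014B12Rik, antisense to the end of Col4a3, had 17 in CKO and 51 in WT. Gm15419, antisense within Col4a2, had 2 in CKO and 4 in WT. The labels do not say whether counting used the strand, so reads of a collagen gene and an antisense partner cannot be told apart.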

How the data were processed

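The authors deposited 1 table of FPKM values with gene lengths for 21673 genes in 2 lens mRNA libraries. The unit is not labelled and was inferred: level times gene length gave whole multiples of 1 step per library, so reads were recovered (100% whole within 0.001), 17165504 in CKO and 20784737 in WT. Per the submitters' processing notes STAR 2.5.1b, HTSeq 0.6.0 and DESeq2 1.10.1 were used, with no role given. Build and gene models are unnamed there, and 99.5% of gene identifiers were found in GENCODE M21.

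A 2-fold size rule stands in for tests, as there is 1 library per genotype. Intervals are exact (Clopper-Pearson and conditional, 95%) and cover counting error only, as reads are not independent molecules. Alternative scalings (library totals, with or without 16 crystallin genes, median-of-ratios, and trimmed mean of M-values with 30% and 5% trimming) kept the geometric mean of the effective libraries. Trimmed means gave the deposited scaling. A pseudocount of 0.1 and filters of 10 reads or none were also tried. The computations, checked on simulated data, used Python 3.11.15, numpy 2.4.6, scipy 1.17.1 and pandas 2.3.3. The simulated data had equal numbers of genes raised and lowered and did not copy the crystallin difference, so they did not test the choice of scaling.

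The members and gene lists were chosen with earlier results of these data known. Named by rule are the 6 collagen IV genes and the label checks. From the processing, receptor and partner lists the rule names measured members past 2-fold and the 3 most abundant. It adds the top 2 of each marker list and the 5 genes nearest to Col4a1 and to Col4a2. Other names fall outside the rule, and only some of them are marked as chosen later. Some genes that the rule names are not reported here.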

Additional observations from a re-analysis of the deposited data

How the results depend on the processing

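All 6 collagen IV genes had a log2 ratio below 0 under every scaling, pseudocount and filter tried, and the 2-fold calls depended on the scaling. For Col4a1 to Col4a6, library totals alone gave log2 ratios of -0.63, -0.68, -0.31, -0.27, -0.25 and -0.19, and 0 genes were lower. Under totals without crystallins they were -1.27, -1.32, -0.94, -0.89, -0.88 and -0.80, and 2 genes were lower. Median-of-ratios and a pseudocount of 0.1 left all 6 past 2-fold. Trimmed means equal the deposited scaling, and a filter does not alter the ratio of a gene it keeps. Neither could therefore change these calls. The ratios between chains moved within their counting intervals with 1 FPKM added.

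Shares of chains depended on the length used. As shares of reads, Col4a1 to Col4a6 took 46.5%, 25.8%, 9.66%, 7.89%, 6.05% and 4.09% in CKO, and in WT Col4a2 to Col4a6 took 28.2%, 8.19%, 6.50%, 4.92% and 3.20%. By GENCODE coding length, chosen after seeing the data in place of RefSeq protein lengths, which were not used here, Col4a2 to Col4a6 took 25.4%, 9.73%, 7.89%, 6.02% and 4.07% in CKO. In WT Col4a1 to Col4a6 then took 49.4%, 27.8%, 8.26%, 6.51%, 4.90% and 3.18%. Each of Col4a3 to Col4a6 had the larger share in CKO under each length. Without Cryab, the chains relative to epithelial genes were at 0.251 in CKO and 0.397 in WT, a ratio of 0.632.

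List counts also depended on the scaling. Under library totals alone the counts of lower genes were 0 for processing, 0 for basement membrane partners, 0 for epithelial, 3 for fibre, 0 for inner retina, 1 for pigment epithelium and 0 for leukocyte genes. The counts of higher genes were then 2 for processing, 5 for proteinases, 5 for other collagens and 2 for endothelial genes, where 19.5% of all measured genes were higher and 0.827% lower. Under totals without crystallins 1 processing gene was higher, 7 fibre genes and 0 inner retina genes were lower. With a pseudocount of 0.1, 4 processing genes were lower and 1 higher, 1 other collagen was lower and 2 were higher, and 2 endothelial genes were higher. No paired analysis was possible because each genotype has 1 library, and none could be left out.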
